A study of Homo sapiens with 4 samples.

Results

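Angiopoietins and vascular endothelial growth factors (VEGFs) are secreted ligands of 2 groups of receptor tyrosine kinases. The 10 genes described here are the angiopoietins ANGPT1, ANGPT2 and ANGPT4, their receptor TEK (also called TIE2) and its relative TIE1, the ligands VEGFA, VEGFB and VEGFC, and the VEGF receptors FLT1 and KDR. They were found as every gene probe whose gene name in the array design was one of these 10, which gave 12 of 58185 probes and 10 of 43311 gene names. ANGPT2 and its family were chosen by earlier results of these same arrays, in which the ANGPT2 signal was higher with 5-azacytidine (AZA), so the values below are a description and no test was made. ANGPT1 activates TEK, and ANGPT2 binds the same receptor and can weaken or replace that signal depending on the setting. TIE1 has no well established ligand of its own and modulates TEK. VEGFA signals mainly through KDR, with FLT1 acting partly as a decoy, VEGFB binds FLT1, and VEGFC acts chiefly through FLT4. The family is best known from the endothelium, and blood progenitors, megakaryocytes and leukaemia cells are also known to make some of these ligands and receptors.

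The 4 conditions were measured on 1 array each, all on 1 slide with Cy3 dye. MDS-L is a cell line derived from a patient with myelodysplastic syndrome (MDS), and MDS-L/CDA is its AZA-resistant derivative, made by transduction of CDA, the enzyme that deaminates cytidine analogues. Each line received either 0.1% DMSO as vehicle or AZA at 1 μM, a cytidine analogue that traps DNA methyltransferases, for 72 h, and all cultures contained IL-3, serum and 2-mercaptoethanol. The comparison asked which genes responded to AZA in the sensitive line and in the resistant line. For 2 of the arrays, MDS-L with AZA and MDS-L/CDA with vehicle, the treatment characteristic in the sample labels named the opposite treatment. The description and source name of both gave the treatments used here, and so did the titles, although those of the AZA arrays name the dose as millimolar. Every difference below therefore compares 1 array with 1 other array, has no replicate check, and rests on those labels. In RNA from whole cultures, fewer cells of a type and less RNA per cell cannot be told apart.

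Signals are intensities scaled so that the 75th percentile of each array equals 45.3, and the error after a signal is the scanner software's own estimate for that spot, which leaves out variation between hybridizations and between cultures. The 75th percentile before scaling lay between 37.3 and 52.9, and between 32.6% and 36.5% of probes were well above background. Probes with repeated spots had a spot-to-spot SD of 0.18 to 0.29 on the log2 scale. The lowest scaled signal that was well above background was 8.61 and 8.63 on the MDS-L arrays and 12.3 and 13.4 on the MDS-L/CDA arrays. Where 1 array of a pair was not well above background, the larger of its signal and that lowest signal took its place, and the ratio is given as "at least". The CDA probe gave 4.77 and 4.27 in MDS-L and 4.98 and 6.60 in MDS-L/CDA cells (vehicle and AZA), none well above background, so the transduced gene was not seen on the arrays labelled MDS-L/CDA. Whether the probe lies inside the transduced sequence was not examined, and every direction given for MDS-L/CDA rests on the label. The AZA/vehicle ratio of DNMT1, the methyltransferase that AZA traps, was 0.80 in MDS-L and 1.11 in MDS-L/CDA cells. All 12 markers of myeloid progenitor identity, among them PTPRC, CD33, CD34 and SPI1, were well above background on at least 1 array.

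AZA lowers methylation of cytosines that precede guanine (CG), so the sequence upstream of the member genes was examined for CG in the RefSeq promoter table (GRCh38.p14). The search covered the 250 bases before each start, CG reads the same on both strands, and methylation itself was not measured on these arrays. Genes with an entry were ANGPT4, TEK, TIE1, VEGFB, VEGFC, FLT1 and KDR, and there was no entry for ANGPT1, ANGPT2 or VEGFA. Over all 35116 promoters the median was 11 CG. The members ranged from 1 CG in TIE1, a count reached or exceeded by 93.9% of all promoters, to 30 in VEGFB, reached or exceeded by 12.4%. FLT1 had 25, VEGFC 22, KDR 17 and ANGPT4 8, and the entries of TEK had 5 and 1. Among genes measured in MDS-L cells the median was 20 (9576 promoters), against 14 for those at least 2-fold higher with AZA (624 promoters) and 21 for those at least 2-fold lower (570 promoters). The promoters of 3 members are shown because their genes behaved differently on the arrays. TIE1 (chr1:43300732-43300981, plus strand) gave a higher signal with AZA in both lines, VEGFB (chr11:64234334-64234583, plus strand) a lower one in both, and KDR (chr4:55125596-55125845, minus strand) did not pass the background flag on any array. They are written 5′ to 3′ in the direction of the gene, with each CG in capitals.
TIE1: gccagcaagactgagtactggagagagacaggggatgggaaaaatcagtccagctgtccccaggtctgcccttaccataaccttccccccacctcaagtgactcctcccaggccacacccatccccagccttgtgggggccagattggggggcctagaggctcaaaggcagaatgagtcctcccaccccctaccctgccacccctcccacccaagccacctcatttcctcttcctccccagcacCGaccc
VEGFB: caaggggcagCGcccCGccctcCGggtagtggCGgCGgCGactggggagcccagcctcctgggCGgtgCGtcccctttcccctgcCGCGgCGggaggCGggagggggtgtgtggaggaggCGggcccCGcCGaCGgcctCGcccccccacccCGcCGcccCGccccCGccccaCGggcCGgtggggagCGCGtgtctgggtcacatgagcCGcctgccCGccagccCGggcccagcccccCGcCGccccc
KDR: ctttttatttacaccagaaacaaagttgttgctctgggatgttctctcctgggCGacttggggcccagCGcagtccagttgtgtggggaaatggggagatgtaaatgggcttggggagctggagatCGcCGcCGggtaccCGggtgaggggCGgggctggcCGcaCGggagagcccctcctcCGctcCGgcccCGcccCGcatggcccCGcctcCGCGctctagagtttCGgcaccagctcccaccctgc

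VEGFA was measured by 2 probes, here called probe 1 and probe 2, which disagreed in MDS-L/CDA cells (below). The array design assigns them to different VEGFA transcript variants. Probe 1 has 60 bases that lie over 412 positions of hg19 (chr6:43746223-43746634, plus strand), so it crosses a splice junction, and its sequence is printed because the direction reported for VEGFA depends on the probe read.
VEGFA probe 1: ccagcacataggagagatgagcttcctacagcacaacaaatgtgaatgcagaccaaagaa

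**Figure D1:**
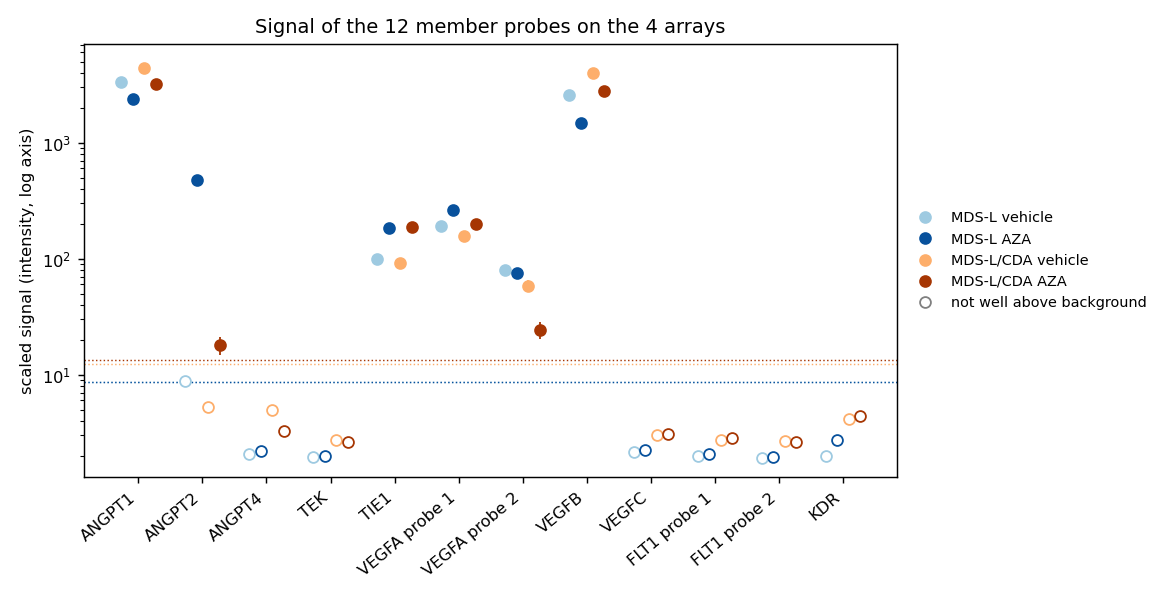
Scaled signal (intensity, log axis) of the 12 probes of the 10 genes on the 4 arrays, 1 point per array, with the scanner software's error for signals well above background; open points were not well above background and dotted lines mark the lowest signal that was on each array. ANGPT2 stands at 475 with AZA in MDS-L cells and at 18.0 with AZA in MDS-L/CDA cells, whereas 6 probes lie below the lines on every array; heights of different probes are not comparable.

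The angiopoietin ligands differed from one another. ANGPT2 was detected with AZA in both lines and with vehicle in neither, ANGPT1 was detected on all 4 arrays and was lower with AZA, and ANGPT4 was not detected. The ANGPT2 probe (hg19, chr8:6360290-6360349, minus strand) gave 8.79 ± 2.09 with vehicle and 475 ± 47.5 with AZA in MDS-L cells, and 5.23 ± 2.79 with vehicle and 18.0 ± 3.32 with AZA in MDS-L/CDA cells. The single high array was that of AZA-treated MDS-L cells, and neither vehicle array was well above background. The AZA/vehicle ratio was at least 54.0 in MDS-L cells (log2 of at least 5.75) and at least 1.46 in MDS-L/CDA cells (log2 of at least 0.54). Without the floor, the signals of MDS-L/CDA cells gave a log2 ratio of 1.78, past 2-fold. With normexp background correction the MDS-L bound was lower, at a log2 of 3.25. Between the AZA-treated cultures, both of which were well above background, ANGPT2 was 26.4-fold lower in MDS-L/CDA cells (log2 -4.72, error 0.30 from the scanner estimates). This order of the 2 AZA arrays held under all 6 other normalizations, with log2 values between -5.23 and -2.93.

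ANGPT2 overlaps the MCPH1 gene in RefSeq. The 2 MCPH1 probes gave MDS-L ratios of 0.83 and 0.78, and they were well above background on all 4 arrays. The array also carries probes named lnc-ANGPT2-2, lnc-ANGPT2-5 and lnc-ANGPT2-6, none of which passed the background flag on any array. Thus the 2 MCPH1 probes did not show the ANGPT2 difference, and the lnc-ANGPT2 probes were too low for a ratio. Among 108 named genes whose main probes had the same pattern of detection as ANGPT2 (well above background with AZA in both lines only), the 5 nearest over the 4 arrays, by Euclidean distance of centred log2 signals, were HGD (distance 1.37), LINC00892 (1.46), CMTM5 (1.47), IGLL5 (1.48) and CRIP1 (1.94). HGD gave 6.90 with vehicle and 190.1 with AZA in MDS-L cells, and 4.82 and 27.2 in MDS-L/CDA cells. These genes were picked for likeness to ANGPT2 on the same arrays, so a shared order of the AZA arrays is no separate result. The likeness is over 4 arrays and 2 of the 4 values of each gene are not well above background.

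ANGPT1, the agonist of TEK, was lower with AZA in both lines, by less than 2-fold at the main scaling. Its probe (hg19, chr8:108262312-108262371, minus strand) gave 3332 ± 333 with vehicle and 2380 ± 238 with AZA in MDS-L cells, and 4364 ± 436 with vehicle and 3186 ± 319 with AZA in MDS-L/CDA cells. The AZA array was the lower one in each line, with ratios of 0.71 in MDS-L (log2 -0.49, error 0.20) and 0.73 in MDS-L/CDA cells (log2 -0.45, error 0.20), and the AZA log2 ratio stayed below 0 under all 6 other normalizations in both lines. Of probes well above background on both arrays, 37.4% in MDS-L and 26.4% in MDS-L/CDA cells were at least as far from a log2 ratio of 0. The difference of the log2 ratios between the lines was -0.03, with an error of 0.29. MDS-L/CDA cells gave 1.31 times the MDS-L signal with vehicle and 1.34 times with AZA, but the log2 ratio with vehicle was -0.13 under median scaling and 0.02 without scaling, and the log2 ratio with AZA was -0.09 without scaling, so the order of the lines depended on the scaling. ANGPT4, the remaining angiopoietin (chr20:853663-853722), gave signals of 2.09 to 4.97, none well above background.

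Of the angiopoietin receptors, TIE1 was detected on every array and TEK on none. The TIE1 probe (hg19, chr1:43788328-43788387, plus strand) gave 99.0 ± 10.2 with vehicle and 185 ± 18.6 with AZA in MDS-L cells, and 92.5 ± 9.93 with vehicle and 188 ± 19.2 with AZA in MDS-L/CDA cells. Both AZA arrays were above both vehicle arrays. The AZA/vehicle ratio was 1.87 in MDS-L (log2 0.90, error 0.21) and 2.03 in MDS-L/CDA cells (log2 1.02, error 0.21), values just outside and just inside the 2-fold limit used here. These log2 ratios were higher than those of 94.9% and 98.2% of the probes well above background on both arrays of each line. The difference between the lines was -0.12 on the log2 scale with an error of 0.30, smaller than its error. Over the 6 other normalizations the log2 ratio lay between 0.36 and 1.09 in MDS-L cells and between 0.60 and 1.04 in MDS-L/CDA cells, above 0 in each. Unlike ANGPT2, TIE1 gave nearly equal signals in the 2 lines, with MDS-L/CDA to MDS-L ratios of 0.94 with vehicle and 1.02 with AZA, the second of which was below 1 under all 6 other normalizations (log2 -0.48 to -0.01).

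TEK, the receptor that binds the angiopoietins (chr9:27230070-27230129), gave 1.94 and 2.00 in MDS-L cells and 2.74 and 2.65 in MDS-L/CDA cells, with vehicle and AZA respectively. Signals this far below the lowest detected signal have no order, and no ratio and no list of genes of like pattern is given for TEK. The VEGF receptors were also not detected. FLT1 had a probe for transcript variant 1 (chr13:28876389-28876448) and one for transcript variant 4 (chr13:28979927-28979986), and their signals ranged from 1.92 to 2.85. KDR, the main signalling receptor of VEGFA (chr4:55945397-55945456), gave 2.00, 2.73, 4.18 and 4.43 in the order MDS-L vehicle, MDS-L AZA, MDS-L/CDA vehicle and MDS-L/CDA AZA. None of these signals was well above background, so a transcript below the limit of these probes was not detectable.

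The VEGF ligands were detected for VEGFA and VEGFB and not for VEGFC. VEGFB, a ligand of FLT1 (probe at hg19 chr11:64006111-64006170, plus strand), gave 2580 ± 258 with vehicle and 1491 ± 149 with AZA in MDS-L cells, and 3991 ± 399 with vehicle and 2767 ± 277 with AZA in MDS-L/CDA cells. As for ANGPT1, the AZA array was the lower one in each line, at ratios of 0.58 (log2 -0.79, error 0.20) in MDS-L and 0.69 (log2 -0.53, error 0.20) in MDS-L/CDA cells. Neither reached 2-fold at this scaling, and the MDS-L log2 ratio was -1.33 with each array scaled to its median. Of probes well above background on both arrays, 17.0% in MDS-L and 20.8% in MDS-L/CDA cells were at least as far from 0. The gene was higher in MDS-L/CDA than in MDS-L cells, at 1.55 times with vehicle and 1.86 times with AZA, and these log2 ratios lay between 0.11 and 0.63 and between 0.39 and 0.89 over all normalizations. VEGFC, a ligand of FLT4 (chr4:177604823-177604882), gave signals of 2.16 to 3.10, none well above background.

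VEGFA, the principal angiogenic ligand, depended on the probe. Probe 1, whose sequence is printed above, gave 192 ± 19.3 with vehicle and 264 ± 26.5 with AZA in MDS-L cells, and 158 ± 16.1 with vehicle and 201 ± 20.3 with AZA in MDS-L/CDA cells. The AZA array was the higher one in each line, with ratios of 1.38 (log2 0.46, error 0.21) and 1.27 (log2 0.34, error 0.21), although median scaling turned the MDS-L log2 ratio to -0.08. Probe 2 (hg19, chr6:43753511-43753570, plus strand) gave 80.0 ± 8.34 with vehicle and 74.9 ± 7.84 with AZA in MDS-L cells, and 58.7 ± 6.70 with vehicle and 24.4 ± 4.24 with AZA in MDS-L/CDA cells. The low array was that of AZA-treated MDS-L/CDA cells. Its AZA/vehicle ratio was 0.94 in MDS-L cells (log2 -0.09, and 0.09 with the percentile taken over detected probes) and 0.42 in MDS-L/CDA cells (log2 -1.27, error 0.30). The MDS-L minus MDS-L/CDA difference of the log2 ratios was 0.12 (error 0.29) for probe 1 and 1.17 (error 0.37) for probe 2. With normexp background correction, whose offset draws ratios of low signals towards 1, the MDS-L/CDA log2 ratio of probe 2 was -0.43, no longer 2-fold. No single direction is therefore given for VEGFA in MDS-L/CDA cells.

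**Figure D2:**
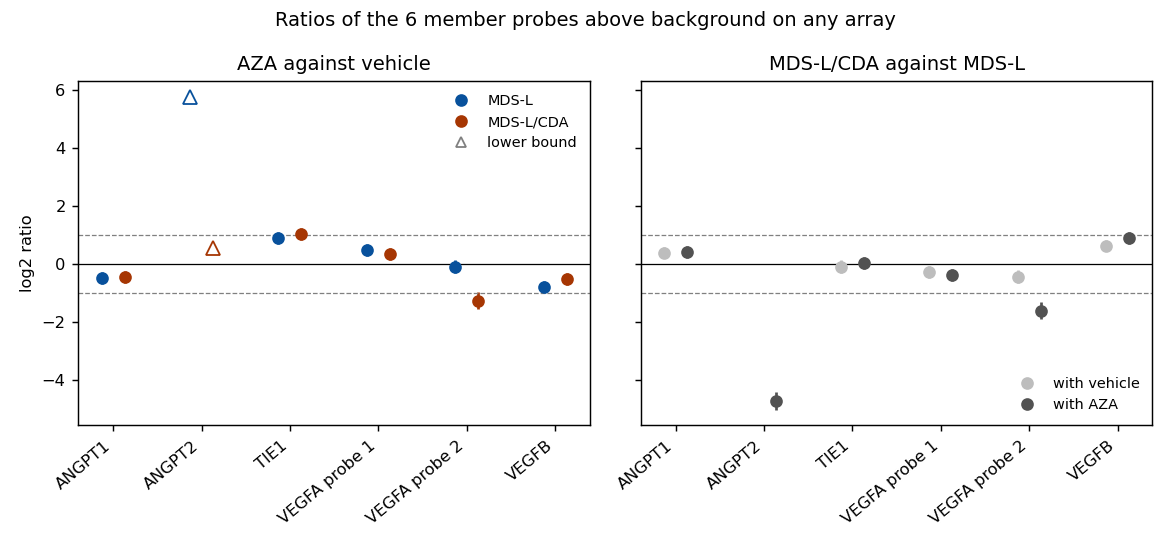
Log2 ratios of the 6 member probes that were well above background on at least 1 array, AZA against vehicle in each line (left) and MDS-L/CDA against MDS-L at each treatment (right); bars are errors from the scanner software's estimates, open triangles are lower bounds and dashed lines mark 2-fold. ANGPT2 has a bound of 5.75 in MDS-L and 0.54 in MDS-L/CDA cells, and VEGFA probe 2 stands at -1.27 in MDS-L/CDA cells where probe 1 stands at 0.34.

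Counted over the 6 member probes that were measured in a comparison, few reached 2-fold, and the share of all probes that did so is given beside each count. In MDS-L cells AZA gave 1 member probe at least 2-fold higher (ANGPT2), where 6.54% of 22261 measured probes were, and 0 at least 2-fold lower, where 6.15% were. In MDS-L/CDA cells AZA gave 1 higher (TIE1), where 2.48% of 19871 probes were, and 1 lower (VEGFA probe 2), where 3.2% were. Nothing is read from these shares for ANGPT2, since the family was chosen on it. Between the lines with vehicle, 0 of 5 measured member probes were 2-fold higher or lower, where 2.08% and 2.71% of 20778 probes were. Between the lines with AZA, 0 of 6 were higher and 2 were lower in MDS-L/CDA cells (ANGPT2 and VEGFA probe 2), where 5.62% and 5.1% of 21668 probes were. These comparisons share arrays, so a low or high array enters 2 of them. For AZA against vehicle, the median log2 ratio of the member probes was 0.18 (MDS-L) and -0.06 (MDS-L/CDA), beside -0.15 and 0.01 over all probes well above background on both arrays. Passing the background filter on only 1 side, as ANGPT2 did, requires a difference, and without that probe the member medians were -0.09 and -0.45.

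**Figure D3:**
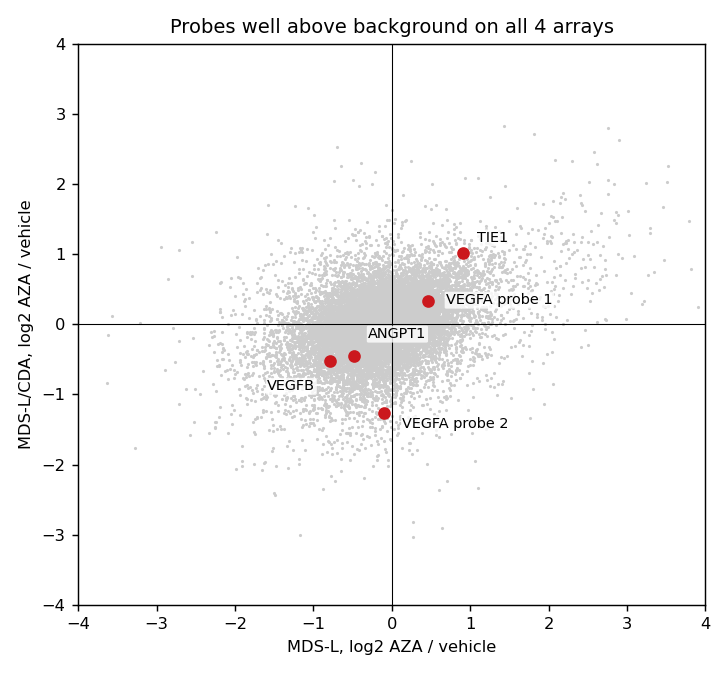
Log2 AZA/vehicle ratio in MDS-L cells (horizontal) and MDS-L/CDA cells (vertical) for the 17809 probes well above background on all 4 arrays, in grey, with the 5 member probes among them in red; 10 grey points lie outside the axes. TIE1 lies above 0 on both axes (0.90 and 1.02), ANGPT1 and VEGFB lie below 0 on both, and the VEGFA probes lie on opposite sides of 0 in both directions.

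The wider family of VEGF and Tie ligands, receptors and co-receptors (18 genes) was mostly not detected. With AZA in MDS-L cells, 1 of 7 measured genes was at least 2-fold higher and 0 were lower, with a median log2 ratio of -0.14 beside -0.12 over all measured probes. Of all measured probes, 6.54% were at least 2-fold higher and 6.15% lower in MDS-L cells, and 2.48% and 3.2% in MDS-L/CDA cells. PGF, a ligand of FLT1, gave 2.18 with vehicle and 38.9 with AZA in MDS-L cells, at least 4.52-fold higher. It gave 7.52 and 8.46 in MDS-L/CDA cells, neither well above background. Like ANGPT2, PGF was detected with AZA and not with vehicle in MDS-L cells, whereas with normexp correction its bound was 1.63-fold. PGF was counted among the 7 only because its AZA array passed the background flag, which requires a difference. In MDS-L cells this also holds for FYN, PLVAP, GP9 and GP6 in the lists below, and in MDS-L/CDA cells for ANGPTL4 and PPBP. The counts and medians of the 2 lines therefore cover partly different genes. FLT4, the receptor of VEGFC, was detected on all arrays at 198, 115, 211 and 227 (MDS-L vehicle and AZA, MDS-L/CDA vehicle and AZA), ratios of 0.58 and 1.08, the second of which fell below 1 without scaling and with normexp. The VEGF co-receptors NRP1 and NRP2 passed the background flag on no array. In MDS-L/CDA cells 0 of 6 measured genes were 2-fold higher or lower with AZA, with a median of 0.27 beside 0.01.

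Genes that act downstream of TEK, TIE1 and the VEGF receptors (32 genes) were mostly detected and mostly within 2-fold. With AZA in MDS-L cells, 3 of 27 measured genes were at least 2-fold higher and 0 lower (median log2 ratio 0.03 beside -0.12 over all measured probes), and in MDS-L/CDA cells 1 of 26 was higher and 0 lower (0.05 beside 0.01). The shares of all measured probes were 6.54% higher and 6.15% lower in MDS-L cells, and 2.48% and 3.2% in MDS-L/CDA cells. SH2D2A, an adaptor that binds KDR and is also known from T cells, gave 144 and 886 in MDS-L and 158 and 772 in MDS-L/CDA cells, ratios of 6.15 and 4.90. Its AZA arrays were the higher ones in both lines, while its 1 other probe was well above background on no array. FYN, a SRC family kinase, gave 6.62 and 79.3 in MDS-L cells, at least 9.21-fold higher, and was below background in MDS-L/CDA cells. NOS3, the endothelial nitric oxide synthase activated through AKT, gave 32.0 and 113.5 in MDS-L (3.55-fold) and 41.1 and 60.6 in MDS-L/CDA cells (1.47-fold), and its MDS-L ratio was 1.95 at its lowest over the normalizations. The bound of FYN was 2.22-fold at its lowest, and with median scaling 3 of the 27 genes were at least 2-fold higher and 4 at least 2-fold lower in MDS-L cells. Over all 22261 measured probes, that scaling gave 668 higher and 5675 lower.

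Of 16 genes known to control VEGFA through oxygen sensing, transcription or mRNA stability, 2 of 15 measured were at least 2-fold higher with AZA in MDS-L cells and 0 lower (median log2 ratio 0.03 beside -0.12). In MDS-L/CDA cells 1 of 15 was higher and 0 lower (0.28 beside 0.01). The shares of all measured probes were 6.54% higher and 6.15% lower in MDS-L cells, and 2.48% and 3.2% in MDS-L/CDA cells. CITED2, which competes with HIF1A for its coactivator, had ratios of 2.35 in MDS-L and 1.81 in MDS-L/CDA cells. ZFP36L1, an RNA-binding protein that destabilizes VEGFA mRNA, had ratios of 2.46 and 1.76. EPAS1, the hypoxia-inducible factor also called HIF-2α, gave 3357 and 5253 in MDS-L (1.57-fold) and 2400.3 and 5441 in MDS-L/CDA cells (2.27-fold). HIF1A itself had ratios of 0.71 and 0.82. With median scaling, which moved the median log2 ratio of all probes in MDS-L cells by -0.54, 0 of these genes were at least 2-fold higher there and 6 were at least 2-fold lower. Over all 22261 measured probes, that scaling gave 668 higher and 5675 lower.

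Since the family is best known from endothelium, 18 endothelial markers were read beside it. With AZA, 5 of 10 measured were at least 2-fold higher in MDS-L cells and 3 of 9 in MDS-L/CDA cells, and 0 were lower in either (median log2 ratios 0.92 and 0.43 beside -0.12 and 0.01). The shares of all measured probes were 6.54% higher and 6.15% lower in MDS-L cells, and 2.48% and 3.2% in MDS-L/CDA cells. VWF, a blood glycoprotein of endothelium and megakaryocytes, gave 21.3 and 244.5 in MDS-L (11.5-fold) and 26.1 and 124.8 in MDS-L/CDA cells (4.78-fold). These values rest on its main probe, and its 2 other probes were well above background on no array. ESAM, a junction protein, had ratios of 4.15 and 2.89, and PECAM1 ratios of 2.22 and 1.02, with its other probes in MDS-L cells at 1.36 and 2.09. PLVAP, which forms the diaphragms of fenestrated endothelium, was detected in MDS-L cells with AZA alone (at least 2.79-fold higher). TAL1, a transcription factor of blood and endothelial progenitors, had ratios of 1.62 and 2.35. EGFL7, ENG, CD34 and ERG went the other way in MDS-L cells, within 2-fold, with ratios of 0.60, 0.72, 0.73 and 0.73. Among these, ERG alone was also lower with AZA in MDS-L/CDA cells (0.64) at the main scaling. Of the 6 markers that define endothelium best, CDH5, CLDN5, EMCN and ROBO4 passed the background flag on no array. The summed signal of the 18 markers was 3510 with vehicle and 2803 with AZA in MDS-L cells and 4146 and 4632 in MDS-L/CDA cells. EGFL7 alone gave 2424 and 1456 of the MDS-L sums. In MDS-L cells the counts were 3 higher and 2 lower with median scaling and 2 higher and 1 lower with normexp, and in MDS-L/CDA cells 0 were higher with normexp, where the lowest ratios of VWF and ESAM were 1.99 and 1.43. Over all measured probes in MDS-L cells, median scaling gave 668 higher and 5675 lower, and normexp 419 and 530. In MDS-L/CDA cells normexp gave 76 higher and 229 lower. Whether these markers had a part in the ANGPT2 or TIE1 values was not tested.

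Platelet-lineage cells are known to hold ANGPT1 and VEGF ligands, and 12 megakaryocytic markers were therefore read as well. With AZA, 4 of 6 measured were at least 2-fold higher in MDS-L cells and 1 of 4 in MDS-L/CDA cells, with 0 lower in either (median log2 ratios 2.20 and 0.62 beside -0.12 and 0.01). The shares of all measured probes were 6.54% higher and 6.15% lower in MDS-L cells, and 2.48% and 3.2% in MDS-L/CDA cells. GP1BB, a subunit of the VWF receptor, gave 157 and 1467 in MDS-L (9.33-fold) and 161 and 202 in MDS-L/CDA cells (1.25-fold). PPBP, a platelet chemokine, had a ratio of 13.0 in MDS-L and of at least 3.17 in MDS-L/CDA cells. GP9, a further subunit of that receptor, was detected with AZA alone in MDS-L cells (at least 8.18-fold higher), and NFE2, a transcription factor of platelet formation, had ratios of 2.59 and 1.45. PF4, ITGB3, GP1BA, TUBB1 and SELP passed the background flag on no array. The summed signal was 4696 and 12999 in MDS-L and 4767 and 6972 in MDS-L/CDA cells, with vehicle and AZA respectively, of which NFE2 alone gave 4045 and 10481 in MDS-L cells. With normexp 0 of 4 were at least 2-fold higher in MDS-L/CDA cells, and the lowest values over the normalizations were 4.73 (MDS-L) and 1.37 (MDS-L/CDA) for PPBP and 2.20 for GP9 in MDS-L cells. The part of these cells in the ANGPT2 value was not tested, and ANGPT1 was lower on that array than with vehicle.

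**Figure D4:**
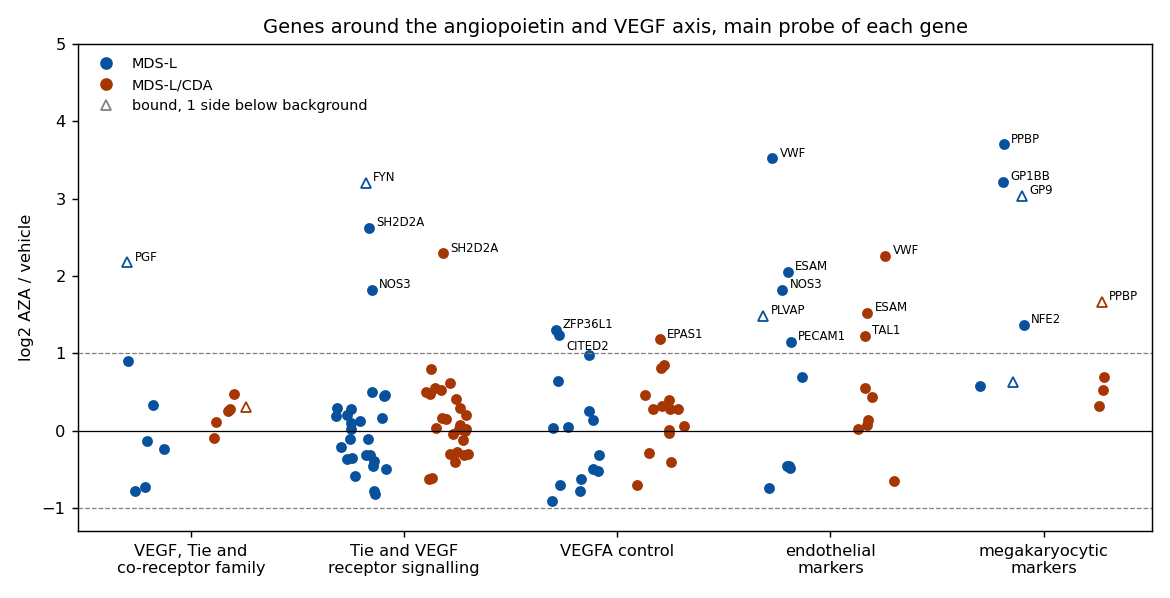
Log2 AZA/vehicle ratio of the main probe of each measured gene in 5 lists, in MDS-L (blue) and MDS-L/CDA cells (brown); open triangles are bounds where 1 array was not well above background, dashed lines mark 2-fold, names mark genes past it and points are spread sideways for sight only. No gene of these lists lies at or under -1, and PPBP (3.70) and VWF (3.52) lie highest in MDS-L cells.

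The normalization moved some members across the 2-fold limit. TIE1 in MDS-L cells was at least 2-fold higher with the 75th percentile over detected probes, with quantile normalization and in the authors' value table, and was not with median scaling, no scaling or normexp. Over all probes in MDS-L cells, 51.5% of those at least 2-fold different were higher with AZA, and this share was 69.6% with the percentile over detected probes and 10.5% with median scaling. In MDS-L/CDA cells the share was 43.6%, and 27.1% without scaling and 24.9% with normexp.

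**Figure D5:**
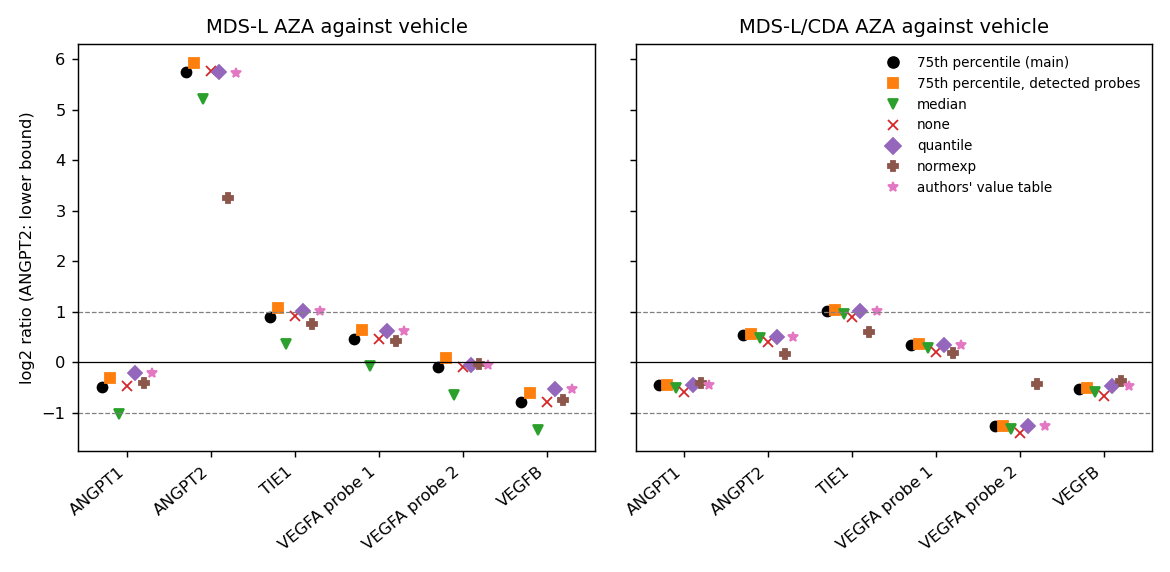
Log2 AZA/vehicle ratio of the 6 measured member probes under the main scaling (black circles) and 6 others, in MDS-L (left) and MDS-L/CDA cells (right); dashed lines mark 2-fold and the ANGPT2 values are lower bounds. The ANGPT2 bound in MDS-L cells lies between 3.25 and 5.94 over the settings, and VEGFA probe 1 falls to -0.08 there with median scaling. The place of ANGPT2 above the other probes is not read as a result, since the family was chosen on it.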

How the data were processed

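Expression was measured on single-dye Agilent arrays, 1 for vehicle and 1 for AZA (1 μM, 72 h) in each of the lines MDS-L and MDS-L/CDA. The authors deposited the scanner output, made with Feature Extraction 10.7.1.1, as spot intensity on a linear scale after background subtraction and without normalization between arrays, and a value table of intensity whose normalization the methods do not describe. Groups followed each sample's description. Control spots and 16 probes marked as outliers were removed, the log2 signals of repeated spots were averaged, each array was scaled to its 75th percentile, and detection followed the software's flag for signal well above background. A probe was counted as higher or lower at 2-fold, by its ratio or its bound, because 1 array per condition allowed no test. The authors' rule of ratio and Z score was an alternative, with the Z score taken here within 10 brightness bins, since its formula is not given in the sources used here. The number of arrays limits the precision.

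Members, gene lists and the naming rule were chosen with earlier results of these data known. Named were all members, list genes past 2-fold in either line by their main probe (the one with the highest mean log2 signal), the 5 genes nearest to ANGPT2, CDA and DNMT1, and the remaining genes were chosen after their values were seen. The 6 lists held 108 entries and covered the wider family, receptor signalling, VEGFA control, endothelial, megakaryocytic and myeloid identity genes. Positions of probes are those of hg19 in the scanner output and were not matched to exons. The code was tested on simulated data. Normexp (offset 50) was run in limma 3.58.1 under R 4.3.3, and all other steps in Python 3.11.15 with pandas 2.3.3, numpy 2.4.6 and scipy 1.17.1, and plots in matplotlib 3.10.9. Other normalizations, detection filters, fold limits and probe rules were tried.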

Additional observations from a re-analysis of the deposited data

How the results depend on the processing

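No paired analysis was possible because each condition had 1 array. The count of member probes past 2-fold with AZA in MDS-L cells, 1 at the main setting, was 2 with the percentile over detected probes, with quantile normalization and in the authors' value table, 3 with median scaling (1 higher, 2 lower) and at 1.5-fold, and 0 when both arrays had to be well above background. Over all 22261 measured probes, 1455 were higher and 1368 lower at the main setting, and median scaling gave 668 higher and 5675 lower. The percentile over detected probes gave 1978 and 863, and quantile normalization 1358 and 1392. The authors' value table gave 1321 and 1336 over the probes it holds. The count with AZA in MDS-L/CDA cells, 2 at the main setting, was 1 with median scaling and without scaling. It was 0 with normexp and at 3-fold. It was 3 (2 higher, 1 lower) with the flag for positive and significant signal and without a floor, the added probe being ANGPT2 (log2 1.78). Over all measured probes, 492 were higher and 636 lower at the main setting. Median scaling gave 400 and 717, no scaling 329 and 886, and normexp 76 and 229. Between the lines with vehicle, 0 became 1 with the flag for positive and significant signal and at 1.5-fold. Between the lines with AZA, 2 became 1 with normexp and with the Z score rule. Over all measured probes, 1218 were higher and 1105 lower between these arrays at the main setting, and 142 and 513 with normexp. Counts over all probes are not given for the other flag, floor, fold limit and Z score rules. Nothing is read from the member counts under those rules. Single-probe values under other settings were held against the combined spot-to-spot SD of the 2 arrays compared, not the scanner error of the probe. Of 142 such values, 113 moved by less than that SD and 29 did not, and no called value changed direction. The sign was kept under every setting for 17 of 23 log2 ratios, and it changed for ANGPT1 between the lines at both treatments, TIE1 between the lines with AZA, VEGFA probe 1 with AZA in both lines and VEGFA probe 2 with AZA in MDS-L cells. For VEGFA probe 1 in MDS-L/CDA cells this was the mean over both probes, -0.46. Relative to the main scaling, the median log2 ratio of all probes between the lines shifted by -0.52 with median scaling (vehicle) and by -0.51 without scaling (AZA). The share of higher probes among those past 2-fold then fell from 43.4% to 3.08% and from 52.4% to 7.57%. Signal over background limits the ratios of VEGFA probe 2 and ANGPT2 in MDS-L/CDA cells, and no value here has a replicate.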

Other observations

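Between the AZA-treated lines, genes of the lists that stood at least 2-fold lower in MDS-L/CDA cells were PGF (ratio of at most 0.344), FYN (at most 0.169), PECAM1 (0.307), GP1BB (0.138), GP9 (at most 0.190), PPBP (0.148) and KIT (0.0520). Over all normalizations GP1BB, PPBP and KIT stayed past 2-fold (highest ratios 0.138, 0.274 and 0.0774), whereas PGF, FYN, PECAM1 and GP9 reached 0.725, 0.532, 0.671 and 0.535. KIT, the stem cell factor receptor, gave 22.8 and 1080.0 in MDS-L and 15.7 and 56.2 in MDS-L/CDA cells, with vehicle and AZA respectively, so its high array was again that of AZA-treated MDS-L cells. Its other measured probe was 5.2-fold higher with AZA in MDS-L cells, and with normexp its MDS-L/CDA ratio was 1.46, under 2-fold. Among the 12 myeloid identity markers, AZA gave 1 at least 2-fold higher (KIT) and 1 lower (CD38) in the MDS-L line, and 1 higher (KIT) and 0 lower in the MDS-L/CDA line. The shares of all measured probes were 6.54% higher and 6.15% lower in MDS-L cells, and 2.48% and 3.2% in MDS-L/CDA cells. Genes at least 2-fold higher in MDS-L/CDA cells with AZA were PIK3R1 (2.22), HSPB1 (2.10), ARNT (2.22), EGFL7 (2.15), CSF2RA (at least 2.35) and CD38 (2.22). Each fell under 2-fold with at least 1 other normalization, with lowest ratios of 1.56, 1.48, 1.33, 1.51, 1.30 and 1.56 in the same order. CD38, a surface enzyme of maturing blood cells, had AZA/vehicle ratios of 0.359 in MDS-L and 0.725 in MDS-L/CDA cells. With vehicle, SEMA3F (2.61) and PXN (2.35) were at least 2-fold higher in MDS-L/CDA cells and TAL1 (0.457) was at least 2-fold lower, and none of these 3 stayed past 2-fold under every normalization, at 1.23, 1.64 and 0.645 where they were nearest to 1. All of these compare 1 array with 1 other.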
